A study of Mus musculus with 15 samples.

Results

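The miR-15, miR-16 and miR-195 family is a group of small regulatory RNAs that share the bases with which a microRNA finds its targets. Its 5 entries were taken by name from the mature miRNA table: mmu-miR-15a-5p, mmu-miR-15b-5p, mmu-miR-15b-3p, mmu-miR-16-5p and mmu-miR-195a-5p, that is 5 of the 1915 mature miRNAs listed. All 5 had counts and were among the 351 miRNAs that passed the filter on low counts. The prefix mmu, for mouse, is left out below.

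The RNA came from pancreatic acini, the enzyme-secreting units of the exocrine gland, of C57BL/6 mice aged 7 to 8 weeks. There were 5 groups of 3 small RNA libraries each. They were a control without drug, TLC-S at 62.5 uM or at 250 uM, and caerulein at 100 pM or at 100 nM. Caerulein is a peptide that activates the cholecystokinin receptor, and the series calls the higher dose pathological and the lower one physiological. TLC-S, taurolithocholic acid 3-sulfate, is a sulfated bile acid that raises calcium in acinar cells and serves in models of biliary pancreatitis. The labels name no allele and no time of exposure. They mention pools of RNA from independent preparations of acini and do not tie them to single libraries. The p-values below therefore reflect library-to-library spread alone, and that spread may be technical.

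A mature microRNA sits in an Argonaute protein and pairs through its seed, here bases 2 to 8, with complementary stretches of messenger RNA, which lowers the output of those messages. The family is known for restraining the cell cycle and for targeting the survival gene Bcl2, and loss of the miR-15a and miR-16-1 hairpins is a classic lesion of chronic lymphocytic leukaemia. Each hairpin gives a 5p and a 3p arm, and 1 arm is usually the more abundant; the hairpins lie in pairs that are copied as 1 transcript.

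The mature sequences show which members are alike. They were read from RefSeq on GRCm38.p6, and capitals mark the seed.
miR-16-5p: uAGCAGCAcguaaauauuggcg
miR-195a-5p: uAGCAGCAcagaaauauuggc
miR-15a-5p: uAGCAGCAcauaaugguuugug
miR-15b-5p: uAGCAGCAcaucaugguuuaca
miR-15b-3p: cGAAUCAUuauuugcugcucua

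The 4 members from 5p arms carried 1 seed, AGCAGCA, whereas miR-15b-3p, the opposite arm of the miR-15b hairpin, carried GAAUCAU. Among 1679 mature miRNAs in the RefSeq table, 10 had the first seed and 1 had the second. Compared from the first base, with the seed included here and in the next counts, miR-16-5p and miR-195a-5p were identical at 19 of 21 positions. The sequences of miR-15a-5p and miR-15b-5p were identical at 18 of 22 positions, while miR-15a-5p and miR-16-5p matched at 16 of 22 and miR-15b-5p and miR-16-5p at 14 of 22. The members thus formed pairs by their 3′ ends that are not the pairs of the genome.

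In the genome, miR-15a-5p (chr14:61632075-61632096) and a first copy of miR-16-5p (chr14:61631936-61631957) lie on the minus strand of chromosome 14 within Dleu2, a long non-coding RNA gene. By GENCODE M21 the miR-15a arms fall in an intron of Dleu2 and the Mir16-1 hairpin overlaps an exon. The second copy of miR-16-5p (chr3:69009918-69009939) lies on the plus strand of chromosome 3 with miR-15b-5p (chr3:69009775-69009796) and miR-15b-3p (chr3:69009813-69009834), in an intron of Smc4, which encodes a condensin subunit. The gene for miR-195a-5p (chr11:70235062-70235082, plus strand) lies 241 bases from the Mir497 hairpin, and no gene other than miRNA genes overlapped it. Both miR-16 hairpins are given here because their 5p arms, the first stretch in capitals, are the same, whereas their 3p arms, the second stretch in capitals, differ.
Mir16-1, chr14:61631880-61631972: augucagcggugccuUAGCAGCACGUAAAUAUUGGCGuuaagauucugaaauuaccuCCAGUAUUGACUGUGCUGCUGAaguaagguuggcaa
Mir16-2, chr3:69009902-69009996: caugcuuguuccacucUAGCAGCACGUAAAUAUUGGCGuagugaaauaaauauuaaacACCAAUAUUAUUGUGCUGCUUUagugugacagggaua

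The depth was lowest at 535473 counts, in replicate 2 of caerulein 100 nM, and highest at 5087728, in replicate 3 of that group. The 5 members held 0.0262% to 0.0773% of the counts of a library. In bulk RNA, fewer cells of a type and less RNA per cell cannot be told apart. The 8 acinar markers (the miR-216, miR-217 and miR-148a arms) held a mean of 39.0% of counts and the 3 islet markers 11.5%; the 5 mesenchymal markers held 1.25%, the 2 endothelial markers 0.594%, the 5 erythrocyte markers 0.0150% and the 5 leukocyte markers 0.00641%. The acinar label thus met its markers, and markers of other cell types were measured as well. Of single libraries, replicate 3 of control stood apart with 50.5% of counts from 1 miRNA, against 17.6% to 42.7% elsewhere. Levels below are CPM, counts scaled to a common library size with TMM, a normalization between libraries. In control, miR-148a-3p had a mean of 334354 of the 440459 CPM of the acinar markers. There miR-375-3p had a mean of 90598 of the 103987 CPM of the islet markers. The summed levels of these lists thus rested mostly on 1 miRNA each.

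The family was led by miR-16-5p, with a mean of 347 CPM over the 15 libraries, rank 93 of the 351 miRNAs tested, whose median was 45.9 CPM. It was followed by miR-15a-5p at 106 CPM (rank 141), miR-195a-5p at 65.0 CPM (rank 157), miR-15b-5p at 17.1 CPM (rank 243) and miR-15b-3p at 4.95 CPM (rank 311). Within single libraries miR-16-5p exceeded miR-15a-5p in 15 of 15, with 2.64 to 4.27 counts for each count of miR-15a-5p. The next step was not as even, since miR-15a-5p exceeded miR-195a-5p in 14 of 15 libraries, and in replicate 1 of TLC-S 62.5 uM it had 213 counts against 294. As neighbours in the order, miR-15a-5p and miR-195a-5p overlapped between the libraries of a group in control and in both TLC-S groups, and did not in the 2 caerulein groups. Below them, miR-195a-5p exceeded miR-15b-5p in 15 of 15 libraries, and miR-15b-5p exceeded its 3p arm in 15 of 15.

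**Figure D1:**
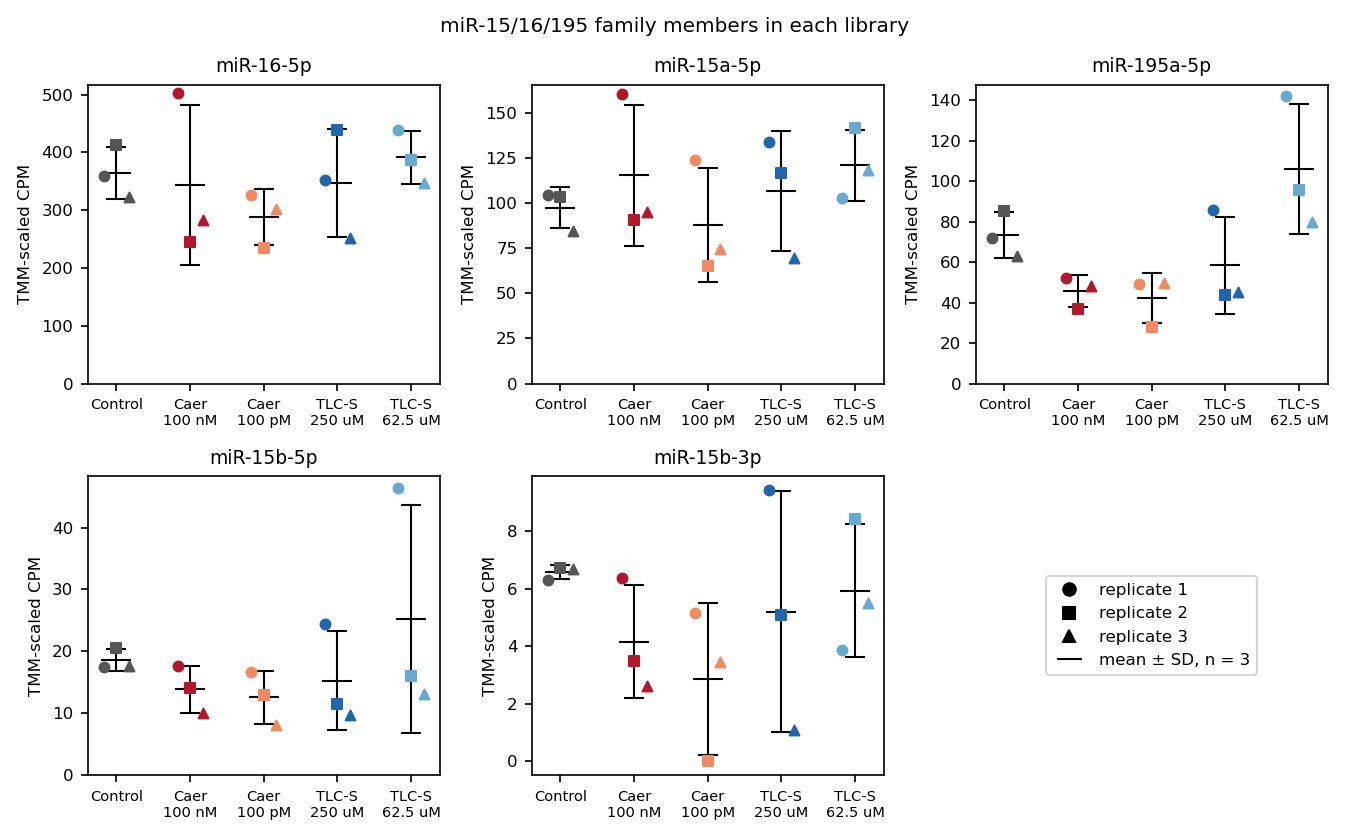
TMM-scaled CPM (vertical axes, linear and different for each panel) of the 5 members in the 5 groups; symbols are libraries, bars the mean ± SD of 3. miR-195a-5p is between 27.7 and 51.9 in all 6 caerulein libraries and between 79.9 and 142 in TLC-S 62.5 uM, while the groups of miR-16-5p and miR-15a-5p overlap with control.

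The most abundant member, miR-16-5p, had 360, 412 and 323 CPM in the control libraries (365 ± 45.0, SD, n = 3). Caerulein at 100 nM gave 503, 245 and 283 CPM, and caerulein at 100 pM gave 327, 235 and 302. TLC-S at 250 uM gave 353, 438 and 251 CPM, and at 62.5 uM it gave 439, 387 and 347. Each treatment group overlapped with control. Its log2 differences from control were -0.08, -0.34, -0.07 and 0.10 in the same order (SE 0.28 each), and with edgeR's quasi-likelihood test none passed a Benjamini-Hochberg adjusted p of 0.05. The 95% intervals reached from -0.91 to 0.67 over the 4 comparisons, so a change of 2-fold in either direction lay outside every one of them.

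Its neighbour on chromosome 14, miR-15a-5p, had 105, 104 and 84.6 CPM in control (97.6 ± 11.3, n = 3). The levels were 161, 91.0 and 94.9 CPM with caerulein 100 nM and 124, 65.3 and 74.7 with caerulein 100 pM. They were 134, 117 and 69.9 CPM with TLC-S 250 uM and 103, 141 and 119 with TLC-S 62.5 uM. All 4 treatment groups overlapped with control here too. The log2 differences from control were 0.25, -0.14, 0.12 and 0.31 with an SE of 0.30 to 0.31, and none passed.

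For miR-195a-5p, the member from the chromosome 11 pair, control had 71.7, 85.2 and 63.1 CPM (73.3 ± 11.2, n = 3). All 6 caerulein libraries were below all 3 of control: 51.9, 36.7 and 48.0 CPM at 100 nM (45.6 ± 7.89) and 49.3, 27.7 and 49.4 CPM at 100 pM (42.2 ± 12.5). With TLC-S 62.5 uM the levels were 142, 95.7 and 79.9 CPM (106 ± 32.2), 2 of them above every control. TLC-S at 250 uM gave 85.8, 43.9 and 45.2 CPM (58.3 ± 23.8) and overlapped with control.

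None of these 4 differences from control passed the test for miR-195a-5p. At caerulein 100 nM the log2 difference was -0.66 (SE 0.32, 95% interval -1.33 to 0.00) with an unadjusted p of 0.0504 and an adjusted p of 0.984 by edgeR. At caerulein 100 pM it was -0.81 (SE 0.33, -1.48 to -0.14), with an unadjusted p of 0.0203 and an adjusted p of 0.722. At TLC-S 250 uM it was -0.34 (SE 0.32), and at TLC-S 62.5 uM it was 0.53 (SE 0.31). All miRNAs below control in every library made up 3.99% of those tested at caerulein 100 nM and 4.84% at 100 pM. Without replicate 1 of TLC-S 62.5 uM, its highest library, the difference there was 0.27. Both endothelial markers, miR-126a-3p and miR-126a-5p, were also lower than control at caerulein 100 nM, by a median log2 difference of -0.81, and neither passed. Their summed level was 3401 to 6247 CPM there and 6721 to 8514 CPM in control, without overlap. At caerulein 100 pM both were lower by a median of -0.33 with a summed level of 4851 to 8768 CPM, which overlapped with control. At TLC-S 62.5 uM 8 of 8 acinar markers were lower than control, with a median log2 difference of -0.51 and none past the threshold, and their summed level was 296047 to 348428 CPM against 243191 to 792470 CPM in control. Both endothelial markers were lower than control at TLC-S 62.5 uM too, by a median log2 difference of -0.50, and neither passed. Their summed level of 4182 to 6674 CPM did not overlap with control. By itself miR-126a-3p did overlap, with 3837 to 6214 CPM against 6060 to 7783 CPM in control, and miR-126a-5p did not. Of all tested miRNAs, 5.98% were below control in every library of TLC-S 62.5 uM. Of the 5 mesenchymal markers, 5 were higher than control at TLC-S 62.5 uM (median 0.13) and 4 were lower at caerulein 100 nM (median -0.08). At caerulein 100 pM 3 were higher and 2 lower (median 0.09), and none of these passed. No marker of these lists was at 0 in any library, and their part in the values of miR-195a-5p was not tested.

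The members at low levels were both arms of the miR-15b hairpin. For miR-15b-5p, control had 17.4, 20.6 and 17.7 CPM (18.6 ± 1.74, n = 3). Caerulein gave 17.6, 14 and 9.98 CPM at 100 nM, and 16.6, 12.9 and 8.04 at 100 pM, where all 3 were below control. Of all tested miRNAs, 4.84% were below control in every library of caerulein 100 pM. TLC-S gave 24.4, 11.4 and 9.77 CPM at 250 uM, and 46.4, 16.1 and 13.1 at 62.5 uM. In both TLC-S groups replicate 1 was above control and the other two libraries were below it. The log2 differences from control were -0.45, -0.53, -0.33 and 0.44 in the order of caerulein 100 nM, 100 pM, TLC-S 250 uM and 62.5 uM (SE 0.46 to 0.49), and none passed. The value for TLC-S 62.5 uM rested on its replicate 1: without that library it was -0.33.

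Its opposite arm, miR-15b-3p, was the scarcest, with 146 counts in all libraries together. Control had 6.30, 6.73 and 6.69 CPM (6.57 ± 0.24, n = 3). Caerulein 100 nM gave 6.37, 3.50 and 2.64 CPM, and caerulein 100 pM gave 5.16 CPM, no count, which allows up to 1.85 CPM, and 3.45 CPM. TLC-S gave 9.45, 5.09 and 1.09 CPM at 250 uM and 3.86, 8.44 and 5.51 CPM at 62.5 uM. The 3 caerulein 100 pM libraries, with 9, 0 and 3 counts, were below all controls, as were those of 4.84% of all tested miRNAs. The log2 differences were -0.67, -1.20, -0.46 and -0.13 with an SE of 0.70 to 0.80, and none passed. At this depth the 95% intervals of miR-15b-3p reached from -2.84 to 1.31. Without replicate 2 of caerulein 100 pM, which had the count of 0, the difference there was -0.61.

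Read together, 0 of the 5 members passed in each of the 4 comparisons with control by edgeR, and by DESeq2 the count was also 0. Of all 351 miRNAs tested, the share that passed by edgeR was 0% in the 2 caerulein comparisons, 0% with TLC-S 250 uM and 0.57% with TLC-S 62.5 uM. DESeq2 called 1 of the 351 at caerulein 100 nM and 4 at TLC-S 62.5 uM. It called 0 at caerulein 100 pM and 0 at TLC-S 250 uM. At an unadjusted p under 0.05 there was 1 member, miR-195a-5p, at caerulein 100 pM, and 0 in the other 3 comparisons. Of all tested, 3.42% reached that p at caerulein 100 nM, 6.84% at 100 pM, 1.14% at TLC-S 250 uM and 7.41% at TLC-S 62.5 uM. The direction differed between the treatments: 5 of 5 members were lower than control at caerulein 100 pM with a median log2 difference of -0.53, against 0.01 over all tested, and 48.7% of all tested were lower. At caerulein 100 nM 4 of 5 were lower, as were 47.3% of all tested (median -0.45, against 0.03), and at TLC-S 250 uM 4 of 5 were lower, as were 55% of all tested (median -0.33, against -0.03). At TLC-S 62.5 uM 4 of 5 were higher, as were 48.7% of all tested (median 0.31, against -0.01). All 4 comparisons use the same 3 control libraries, so their directions are not independent of each other. Nor are the members independent: miR-15b-5p and miR-15b-3p are arms of 1 hairpin. The miR-15a and miR-15b hairpins each share a transcript with a miR-16 hairpin. At TLC-S 62.5 uM miR-15b-5p was lower than control without replicate 1 of that group.

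**Figure D2:**
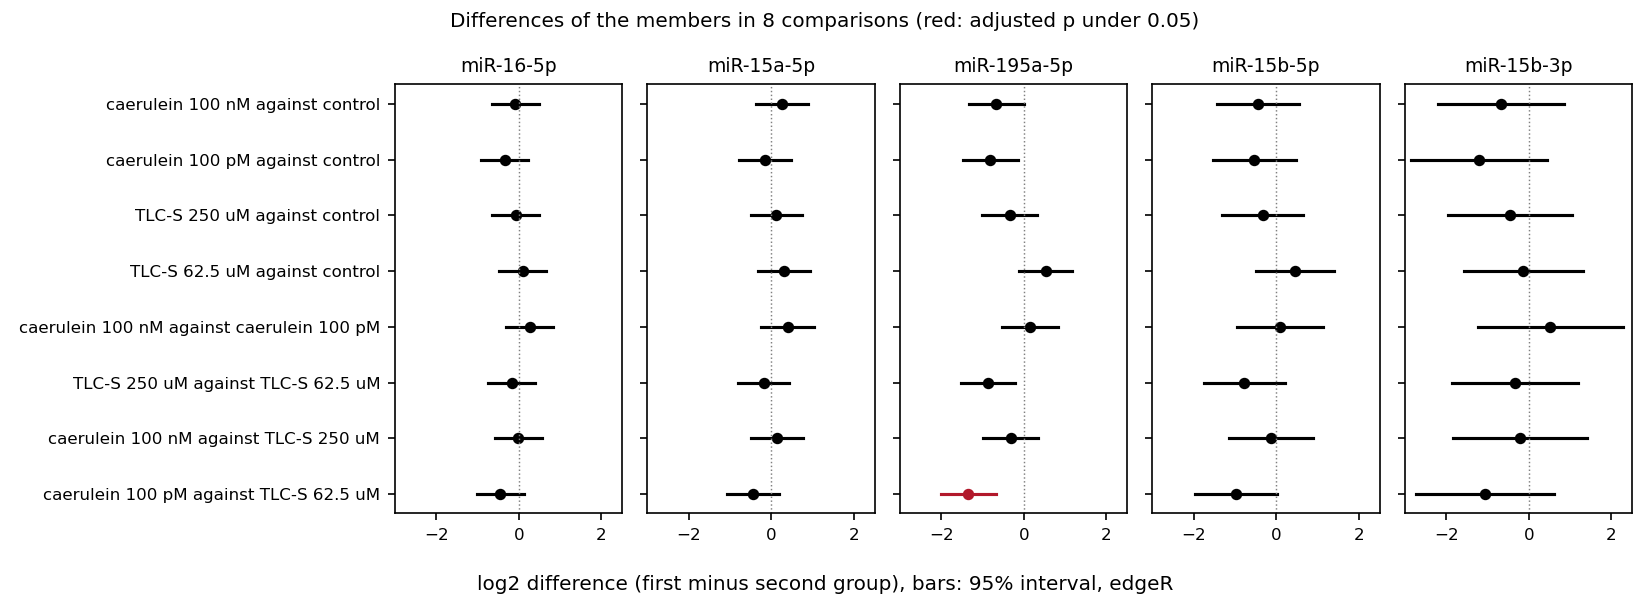
Log2 difference (horizontal axis) of each member in 8 comparisons of the first named group minus the second; points are edgeR estimates and bars 95% intervals. The interval drawn in red, miR-195a-5p in caerulein 100 pM against TLC-S 62.5 uM, runs from -2.01 to -0.66 and is the one with an adjusted p under 0.05.

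The doses of each agent were compared next. Between caerulein 100 nM and 100 pM, 0 of 5 members passed by edgeR or DESeq2, and 0% of all tested passed. There were 0 members at an unadjusted p under 0.05, against 1.71% of all tested. The 5 members were all higher at 100 nM, by log2 differences of 0.08 to 0.53, as were 48.4% of all tested, and the libraries of the doses overlapped for each member. Library totals in place of TMM moved the median of all miRNAs by 0.29 in this comparison, and the difference of miR-16-5p from 0.26 to 0.54.

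Between TLC-S 250 uM and 62.5 uM, 0 of 5 members passed by edgeR and by DESeq2, and 1.14% of all tested passed. miR-195a-5p had the largest difference of the family, -0.87 (SE 0.32, 95% interval -1.53 to -0.22), with 2 of 3 libraries at 250 uM below all of 62.5 uM, an unadjusted p of 0.0111 and an adjusted p of 0.349. It was the 1 member with an unadjusted p under 0.05, which 8.83% of all tested had. The value was -0.62 without replicate 1 of TLC-S 62.5 uM and -1.18 without replicate 1 of TLC-S 250 uM. For miR-15b-5p the difference was -0.77 (SE 0.47), and 0.00 without replicate 1 of TLC-S 62.5 uM. The other 3 members differed by -0.33 to -0.17. In this comparison 8 of 8 acinar markers were higher at 250 uM, with a median log2 difference of 0.37 and none past the threshold, and their summed level was 301995 to 581398 CPM against 296047 to 348428 CPM. Their part in the values of the members was not tested.

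Across the agents, the higher doses gave no call of a member. In caerulein 100 nM against TLC-S 250 uM 0 of 5 members passed by edgeR or DESeq2. Of all tested, 0% passed by edgeR and 1 of 351 by DESeq2. There were 0 members at an unadjusted p under 0.05, against 2.28% of all tested. The log2 differences of the 5 members ran from -0.32 for miR-195a-5p to 0.13 for miR-15a-5p.

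The lower doses gave the 1 call of the family. miR-195a-5p was lower at caerulein 100 pM than at TLC-S 62.5 uM by a log2 difference of -1.34 (SE 0.33, 95% interval -2.01 to -0.66), 0.395 times the level, with an adjusted p of 0.0345 by edgeR's quasi-likelihood test, rank 4 of 351. The 3 caerulein libraries lay at 27.7 to 49.4 CPM and the 3 TLC-S libraries at 79.9 to 142 CPM, without overlap. In this comparison 1 of 5 members passed, and 1.42% of all tested did; the same member was the 1 with an unadjusted p under 0.05, a p reached by 13.7% of all tested. The caerulein group was below the TLC-S group in every library for 2 members, miR-195a-5p and miR-16-5p, and for 7.12% of all tested. The 2 agents differ in kind and their doses in scale, so the comparison sets these libraries side by side and matches no dose.

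The other members were also lower at caerulein 100 pM than at TLC-S 62.5 uM, without passing the test. The log2 differences were -0.97 for miR-15b-5p (SE 0.48), -1.07 for miR-15b-3p (SE 0.81), -0.45 for miR-15a-5p (SE 0.31) and -0.44 for miR-16-5p (SE 0.28). Without replicate 1 of TLC-S 62.5 uM the difference of miR-15b-5p was -0.22, and without the libraries numbered 2 that of miR-15b-3p was -0.14. The median of the 5 was the -0.97 of miR-15b-5p, against -0.003 over all tested, of which 50.4% were lower. In the same comparison 8 of 8 acinar markers were higher at caerulein 100 pM, with a median log2 difference of 0.72 and 1 past the threshold. Their summed level was 336281 to 642005 CPM there and 296047 to 348428 CPM at TLC-S 62.5 uM. Of the 5 mesenchymal markers 4 were lower and 1 higher (median -0.18; summed level 9380 to 14816 CPM against 10971 to 14534), and none passed. Both endothelial markers were higher at caerulein 100 pM (median 0.17), and neither passed. Their summed level there was 4851 to 8768 CPM, against 4182 to 6674 CPM at TLC-S 62.5 uM. None of the acinar, mesenchymal and endothelial markers was at 0 in any library. Their part in the result for miR-195a-5p was not tested.

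The call for miR-195a-5p depended on single libraries of its own 2 groups. The adjusted p was 0.290 without replicate 2 of caerulein 100 pM (difference -1.14) and 0.0602 without replicate 3 of that group (-1.48). It was 0.178 without replicate 1 of TLC-S 62.5 uM (-1.12) and 0.0501 without replicate 2 (-1.43). In a test of any difference over the 5 groups, 0 of 5 members passed by edgeR and 1, miR-195a-5p, by DESeq2, while 0.855% of all tested passed by edgeR and 1.99% by DESeq2. For miR-195a-5p that F test gave a p of 0.0017 and an adjusted p of 0.153, rank 4 of 351, and without replicate 1 of TLC-S 250 uM the adjusted p was 0.0397. The adjusted p of the other 4 members was at least 0.904.

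Ratios between members in a library do not depend on the scaling between libraries. The log2 ratio of miR-195a-5p to miR-16-5p counts was -2.32, -2.27 and -2.35 in control (mean -2.31 ± 0.04, SD, n = 3), a narrow range. It was -3.27, -2.71 and -2.56 with caerulein 100 nM and -2.72, -3.07 and -2.60 with caerulein 100 pM, below control in 6 of 6 libraries. It was -1.63, -2.02 and -2.11 with TLC-S 62.5 uM, above control in 3 of 3, and -2.03, -3.31 and -2.47 with TLC-S 250 uM, where the libraries lay on both sides.

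The differences of this ratio from control were -0.53 for caerulein 100 nM, -0.48 for caerulein 100 pM and 0.40 for TLC-S 62.5 uM, each with p = 0.1 in a two-sided exact permutation test. With 3 libraries against 3 that is the smallest p this test can give, and after adjustment over the 20 ratio tests it was 0.4. For TLC-S 250 uM the difference was -0.29 with p = 0.7 in the exact permutation test. Of the ratios of all other tested miRNAs to miR-16-5p, 1.14% lay below control in every library of caerulein 100 nM, 1.43% did so in caerulein 100 pM, and 4% lay above control in every library of TLC-S 62.5 uM. The caerulein 100 pM ratios were also all below those of TLC-S 62.5 uM, as were 1.14% of all such ratios.

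**Figure D3:**
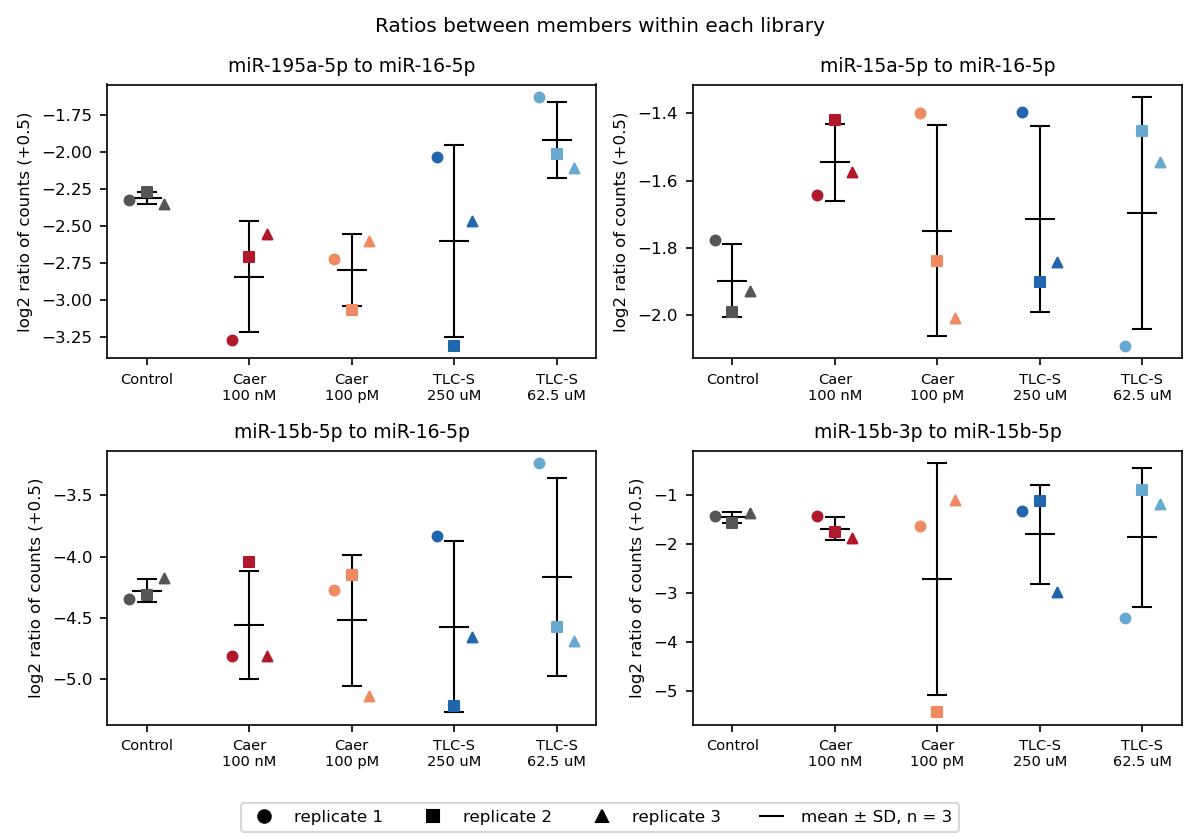
Log2 ratio of counts, after adding 0.5 to each, of 4 pairs of members (vertical axes differ) in the 5 groups; symbols are libraries, bars the mean ± SD of 3. For miR-195a-5p to miR-16-5p the control libraries lie within -2.35 to -2.27, the 6 caerulein libraries below and the 3 TLC-S 62.5 uM libraries above.

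The other ratios with p = 0.1 by the exact permutation test involved miR-15a-5p at caerulein 100 nM. Its log2 ratio to miR-16-5p was -1.64, -1.42 and -1.57 there and -1.78, -1.99 and -1.93 in control, a difference of 0.35, and 4.57% of all ratios to miR-16-5p lay above control in every library. Its ratio to miR-15b-5p was higher than control by 0.63 in the same group. Both had an adjusted p of 0.4 by the exact permutation test. The ratio of miR-15b-5p to miR-16-5p differed from control by -0.29 to 0.11, with p of 0.4 to 1 by the exact permutation test.

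The arms of the miR-15b hairpin could be compared with each other directly. The 3p arm made up 26.2% ± 1.42 of the counts of both arms in control (SD, n = 3). Over all 15 libraries the share was 22.7% ± 9.64, with a highest value of 34.4%. It was 0 of 21 counts in replicate 2 of caerulein 100 pM (exact Clopper-Pearson 95% interval 0% to 16.1%, counting error only). It was 7.69% in replicate 1 of TLC-S 62.5 uM (3.38% to 14.6% by the same method). In the latter library the 5p arm had 96 counts and the 3p arm 8. The log2 ratio of the arms differed from control by -1.26 to -0.23 over the 4 treatments, with p of 0.3 to 1 by the exact permutation test. The largest of these, at caerulein 100 pM, depended on the 0.5 added to the count of 0: it was -0.18 with 5 added to each count. The direction turned in 3 of the 4 treatments without 1 library: to 0.10 without replicate 2 of caerulein 100 pM, to 0.24 without replicate 3 of TLC-S 250 uM and to 0.41 without replicate 1 of TLC-S 62.5 uM.

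For miR-16-5p the 2 hairpins cannot be told apart by its own sequence. The deposited values per precursor listed 49.6% to 52.2% of its counts under mir-16-1 in every library, with fractional values in 10 libraries. The 3p arms, which differ in sequence, gave another share: mir-16-1 held 97.1% ± 2.0 of the 3p counts (SD, n = 15), from 92.5% in replicate 1 of TLC-S 250 uM (exact 95% interval 84.4% to 97.2%) to 100% in replicate 2 of that group (98.2% to 100%). In sum, 3155 counts belonged to miR-16-1-3p and 81 to miR-16-2-3p. The 3p share is a share of stable 3p arms and gives no share of miR-16-5p.

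The neighbours of the miR-16 hairpins gave another measure. miR-15a-5p, from chromosome 14, made up 86.2% ± 5.59 of the counts of miR-15a-5p and miR-15b-5p together (SD, n = 15). The lowest value was 68.9% in replicate 1 of TLC-S 62.5 uM (exact 95% interval 63.4% to 74.1%) and the other 14 libraries had 82.7% to 91.1%. In every library miR-16-1-3p had more counts than miR-16-2-3p, and miR-15a-5p more than miR-15b-5p.

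**Figure D4:**
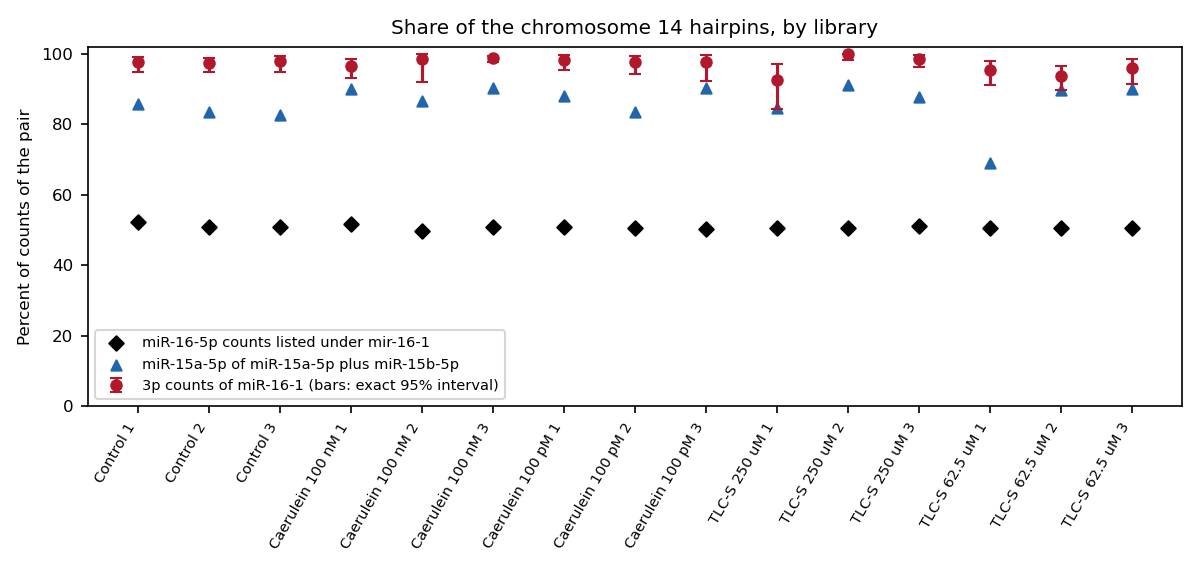
Percent of counts (vertical axis) assigned to the chromosome 14 hairpins in each of the 15 libraries (horizontal axis): miR-16-5p counts listed under mir-16-1, 3p counts of miR-16-1 among both miR-16 3p arms with exact 95% intervals, and miR-15a-5p among miR-15a-5p plus miR-15b-5p. The listed split stays within 49.6% to 52.2%, whereas the 3p share lies at 92.5% to 100%.

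Other arms and seed mates of the family were described from a list of 14 miRNAs, of which 9 had counts and 5 could be tested: miR-15a-3p, miR-16-1-3p, miR-497a-5p, miR-322-5p and miR-322-3p. None of the 5 passed in any of the 8 comparisons or in the F test by edgeR. At an unadjusted p under 0.05 there was 1, miR-322-5p, in caerulein 100 pM against TLC-S 62.5 uM and in the F test (adjusted p 0.447), and DESeq2 called it in the first of these. Of all tested, 13.7% had such an unadjusted p in that comparison and 7.41% in the F test, and DESeq2 called 3.13% of them in the comparison. The 3p arm of Mir16-1, the passenger strand of that hairpin, was nearly as abundant as miR-15a-5p, with 101 against 106 CPM, and exceeded it in 8 of 15 libraries. The 3p arm of miR-15a was scarce at 8.3 CPM.

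The seed AGCAGCA is also carried by miR-497a-5p, from the hairpin beside Mir195a, and by miR-322-5p, from a chromosome X hairpin whose human counterpart is called miR-424. Their sequences are shown because the seed is the same and the flanks are not.
miR-497a-5p: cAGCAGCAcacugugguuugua
miR-322-5p: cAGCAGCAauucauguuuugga

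miR-322-5p, known from the pair it forms with miR-503, varied more than 99.1% of the tested miRNAs, with an SD of log2 CPM of 1.13 over the 15 libraries. It had 15.99, 25.4 and 18.2 CPM in control, 4.41, 1.75 and 19.97 with caerulein 100 nM, and 12.0, 3.69 and 13.8 with caerulein 100 pM. It had 26.0, 13.4 and 19.2 CPM with TLC-S 250 uM and 52.1, 33.8 and 15.8 with TLC-S 62.5 uM. All 3 libraries of caerulein 100 pM were below control, as were those of 4.84% of all tested miRNAs. They were also below those of TLC-S 62.5 uM, as were those of 7.12% of all tested. The counts were 9, 1 and 106 with caerulein 100 nM and 21, 6 and 12 with caerulein 100 pM. Against TLC-S 62.5 uM the log2 difference at caerulein 100 pM was -1.84 (SE 0.58, 95% interval -3.03 to -0.64) with an adjusted p of 0.116 by edgeR and 0.0448 by DESeq2, and without replicate 3 of TLC-S 62.5 uM the adjusted p by edgeR was 0.0406. Against control the differences were -0.91, -1.06, -0.04 and 0.78 in the order of caerulein 100 nM, 100 pM, TLC-S 250 uM and 62.5 uM (SE 0.52 to 0.58). The first of them was -2.46 without replicate 3 of caerulein 100 nM, which leaves the libraries with 9 and 1 counts.

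miR-497a-5p, the genomic partner of miR-195a-5p, had 29.1, 34.8 and 21.0 CPM in control and 28.7, 16.6 and 16.1 with caerulein 100 pM. It had 20.3, 37.4 and 23.4 CPM with TLC-S 62.5 uM, so these groups overlapped. The log2 difference of the latter 2 groups was -0.39 (SE 0.39), against -1.34 for miR-195a-5p, and the difference between both was not tested. miR-195a-5p exceeded miR-497a-5p in 15 of 15 libraries, by 1.38 to 7 counts for each count.

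**Figure D5:**
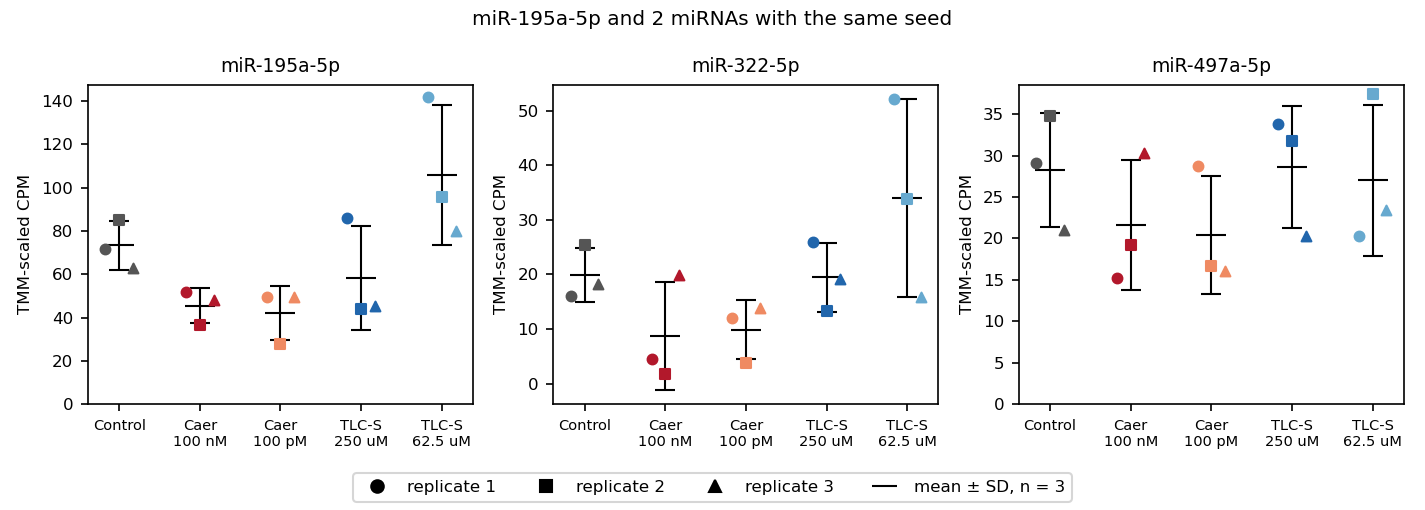
TMM-scaled CPM (vertical axes, linear and different for each panel) of miR-195a-5p, miR-322-5p and miR-497a-5p in the 5 groups; symbols are libraries, bars the mean ± SD of 3. miR-195a-5p and miR-322-5p at caerulein 100 pM lie below their control libraries, and miR-497a-5p overlaps. Of all tested miRNAs, 4.84% lie below control in every library of caerulein 100 pM.

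The spread over the 15 libraries followed abundance except for miR-195a-5p. The SD of log2 CPM was 0.33 for miR-16-5p, 0.37 for miR-15a-5p, 0.60 for miR-195a-5p, 0.58 for miR-15b-5p and 0.89 for miR-15b-3p, against a median of 0.45 over all tested. For miR-195a-5p the SD was 0.40 within groups and 0.53 between group means. For the other 4 members the SD within groups was the larger of the 2.

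Likeness was measured as the root mean square difference of log2 CPM over the 15 libraries after each miRNA's mean was subtracted, which depends on shared libraries and depth. The miRNA most like miR-16-5p was miR-15a-5p (0.23), out of 350, followed by miR-484 (0.25) and miR-29a-3p (0.26). Nearest to miR-15a-5p were miR-345-5p (0.20), miR-30e-5p (0.22) and miR-365-3p (0.22), with miR-16-5p at rank 4. For miR-195a-5p they were miR-484 (0.40), miR-20a-5p (0.41) and miR-872-5p (0.41), with miR-15b-5p at rank 6, miR-16-5p at rank 11 and its genomic partner miR-497a-5p at rank 52 (0.55). Nearest to miR-15b-5p were miR-99b-3p (0.36), miR-20a-5p (0.37) and miR-484 (0.38), and nearest to miR-15b-3p were miR-221-3p (0.61), miR-18a-5p (0.61) and miR-15a-5p (0.62). miR-15b-3p was at rank 240 for its own 5p arm.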

How the data were processed

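The labels' protocols name a mirVana kit for total RNA and an Illumina sequencer. Among tools and builds, the submitters' processing notes list cutadapt, Bowtie, GRCm38 and mm10. Not given in the sources used here were tool versions and the program that counted. The authors deposited estimated counts (expected counts) for each mature miRNA and each precursor; their deposited RPM table was used only to check the counts. Mature values, already whole, were within 0.5 of the sum over precursors. Precursor values were fractional in 5 libraries for miR-15a-5p, in 5 for miR-15b-5p and in 2 for miR-195a-5p, each listed under its own precursor. Members alike in sequence may thus share reads, to an extent that was not tested.

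Sample titles gave the groups. A single edgeR 4.0.16 fit (R 4.3.3; TMM, filterByExpr with minimum count 10 and total 15, glmQLFit, glmQLFTest) took all 15 libraries with a mean for each of 5 groups, and p-values were adjusted by Benjamini-Hochberg for 351 miRNAs, with a threshold of 0.05 and 10 residual degrees of freedom. The script was tested on simulated data. It made 8 comparisons of groups and an F test. The biological coefficient of variation was 0.285. Within groups, replicates differed beyond sampling noise, with 62.9 to 1852 for chi-square over its degrees of freedom, so each library counted once. Intervals from counts cover counting error only.

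Named miRNAs are the 5 members, a list of 14 other arms and seed mates, and the 3 miRNAs most like each member. Members and lists, cell type markers included, were chosen with earlier results of these data known. Log2 ratios had 0.5 added to each count. The alternatives changed the scaling (RLE, upper quartile, library totals), dropped the 3 most abundant miRNAs, changed the filter, used DESeq2 1.42.0, limma 3.58.1 or robust dispersion, took the highest precursor row, added a replicate block, fitted the 2 groups alone, or left out libraries. Sequences and positions came from RefSeq (GRCm38.p6), and host genes from GENCODE M21. Figures were drawn in matplotlib 3.10.9 under Python 3.11.15.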

Additional observations from a re-analysis of the deposited data

How the results depend on the processing

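For caerulein 100 pM against TLC-S 62.5 uM, the call of miR-195a-5p held in 24 of 31 alternatives, with log2 differences from -1.67 to -1.12 in all 31 and adjusted p from 0.00246 (DESeq2) to 0.700 (without the libraries numbered 2). The count of members called was 0 with the 2 groups alone (adjusted p 0.0770, with fewer samples), and leaving out libraries gave 0 to 1. For the F test the count was 1 in place of 0 with no filter (adjusted p of miR-195a-5p 0.0319), DESeq2 (0.00511) and the replicate block (0.0196). It was 0 to 1 when libraries were left out. Of all tested, 10 of 867 passed the F test with no filter and 7 of 351 by DESeq2. With the replicate block 6 of 351 passed it, against 3 of 351 in the edgeR fit used above. The cause was not tested. The other 7 comparisons kept a count of 0 members in every alternative run. Library totals in place of TMM shifted the median of all miRNAs by -0.24 in caerulein 100 pM against control and by -0.35 against TLC-S 62.5 uM, where miR-195a-5p then differed by -1.65. The sign of miR-15b-5p in TLC-S 250 uM against 62.5 uM turned when libraries were left out (-1.18 to 0.0012), and that of the ratio of miR-15b-3p to miR-15b-5p at caerulein 100 nM when 5 was added to each count (0.0082). In 44 further fits the sign of an uncalled difference of a member, smaller than its SE, turned. Without replicate 3 of caerulein 100 nM the F test of miR-322-5p had an adjusted p of 0.0474. Replicate numbers follow accession order and the series of codes in the titles, and the labels do not say that a code series marks a shared batch or day. In 15 of 30 pairs of the same number the deviations from group means had a correlation over 0.1, against 7 of 60 pairs of different numbers. The mean correlation was 0.128 for the same number and -0.064 for different numbers. Outside their group, 11 of 15 libraries correlated best with their own number. This is a hint from the data and not the design. In caerulein 100 pM against TLC-S 62.5 uM, the replicate block in the edgeR fit gave miR-195a-5p an adjusted p of 0.00615. With that block 14 of 351 tested miRNAs passed in this comparison, against 5 of 351 without it. Depth limits miR-15b-3p most, at 0 to 21 counts a library.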

Other observations

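In some libraries all members lay on the same side of their group's mean. All 5 were above their group's mean log2 CPM in replicate 1 of caerulein 100 nM, replicate 1 of caerulein 100 pM, replicate 1 of TLC-S 250 uM and replicate 2 of control. In replicate 3 of TLC-S 250 uM and replicate 3 of TLC-S 62.5 uM 0 of 5 were above it. Replicate 1 of TLC-S 62.5 uM was mixed: miR-15b-5p lay 1.07 above its group's mean on the log2 scale and miR-195a-5p 0.46 above, whereas miR-15b-3p lay at -0.46 and miR-15a-5p at -0.22. These are values of single libraries and were not tested, and the share of all tested miRNAs on the same side was not counted.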
